A study of Rattus norvegicus with 24 samples.

Results

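The genes described here mark GABAergic neurons, the inhibitory neurons of the brain. They were listed by symbol as Gad1, Gad2, Slc32a1, Dlx1, Dlx2, Dlx5, Npy and Sst, and 6 of these 8 were found in the first column of the deposited expression table of 12187 genes. Dlx5 and Npy were not analysed here. The list covers GABA synthesis, vesicle loading, lineage factors and neuropeptides. Its rule uses no measured value, but the list was chosen with earlier results of these data known.

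The study profiled the effects of vitamin C on DNA modification and transcription in differentiating Sprague-Dawley rat neural stem cells. RNA-seq covered 3 groups of 2 libraries: stem cells (D0), and their differentiated progeny in the absence or presence of vitamin C. Differentiated cells are marked D4 in replicate 1 and D5 in replicate 2. The vitamin C dose, the age and brain region of origin, and whether replicates came from separate cultures or animals are not given in the sources used here, so the tests measure the spread between these libraries. Values are CPM, read counts scaled to a library total set by the authors, and replicate 1 is given first throughout. Recovered reads over the listed genes numbered 4811094 to 6641721 in replicate 1 and 10299321 to 13184601 in replicate 2, so a count of 0 allows up to 0.378 CPM in the shallowest library and 0.140 CPM in the deepest (3 reads, counting error only).

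GABA is made from glutamate by 2 glutamate decarboxylases, GAD67 from Gad1 and GAD65 from Gad2, and is loaded into synaptic vesicles by the transporter encoded by Slc32a1. In the forebrain, GABAergic neurons descend from progenitors of the ventral telencephalon that express the homeobox factors Dlx1 and Dlx2, and some of them make the peptide somatostatin from Sst. Gad1, Dlx1 and Dlx2 can also be transcribed in progenitors, so a low level of one of them does not mark a mature neuron.

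The 250 bases before and 50 bases after the start site of Gad1, Slc32a1 and Sst are shown because these 3 members stood apart most between the replicates, as described further on. The sequences are from RefSeq, build GRCr8, plus strand, at chr3:75777202-75777501, chr3:167686995-167687294 and chr11:90461296-90461595. Capitals mark matches to the motifs searched:
Gad1: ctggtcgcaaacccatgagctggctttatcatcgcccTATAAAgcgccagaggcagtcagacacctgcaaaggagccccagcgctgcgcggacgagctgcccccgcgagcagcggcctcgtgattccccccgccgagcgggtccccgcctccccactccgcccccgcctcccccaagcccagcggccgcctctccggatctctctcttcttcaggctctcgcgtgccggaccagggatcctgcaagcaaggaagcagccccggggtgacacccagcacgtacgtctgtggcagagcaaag
Slc32a1: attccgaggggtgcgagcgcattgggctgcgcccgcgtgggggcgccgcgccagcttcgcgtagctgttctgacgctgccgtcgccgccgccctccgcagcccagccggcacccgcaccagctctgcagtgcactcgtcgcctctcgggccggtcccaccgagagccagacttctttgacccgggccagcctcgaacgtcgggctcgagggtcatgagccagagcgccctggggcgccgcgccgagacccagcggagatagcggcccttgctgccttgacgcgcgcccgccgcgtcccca
Sst: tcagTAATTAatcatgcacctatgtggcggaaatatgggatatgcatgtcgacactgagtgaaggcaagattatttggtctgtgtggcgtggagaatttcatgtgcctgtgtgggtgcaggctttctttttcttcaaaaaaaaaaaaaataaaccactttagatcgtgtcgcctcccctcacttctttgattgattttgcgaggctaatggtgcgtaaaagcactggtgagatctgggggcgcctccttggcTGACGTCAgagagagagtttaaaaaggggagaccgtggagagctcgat

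These 3 windows differ in base composition. That of Slc32a1 held 42 CG dinucleotides, the site of cytosine methylation, that of Gad1 held 26 and that of Sst held 11, against a median of 7 over 33469 rat promoters of the same length. Both strands were searched for the cyclic AMP response element TGACGTCA, the TATA motif TATAAA, the E-box CAGCTG, the homeodomain motif TAATTA and the palindromic nuclear factor I motif. No 2 matches overlapped. The cyclic AMP element, through which the Sst gene is known to respond to CREB, was found in the Sst window, and 1.83% of all promoters hold one. The Sst window also held the homeodomain motif (5.36% of promoters), and the Gad1 window held the TATA motif (14.2%). Counted from the annotated start site, the first base lay at 3 for the cyclic AMP element. It lay at -246 for the homeodomain motif and at -213 for the TATA motif. The cyclic AMP element thus follows the annotated start, and whether transcription begins at that start was not tested. Whether any match is in use was not tested. The E-box (15.1%) and the nuclear factor I motif (0.0418%) were found in none of the 3 windows.

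Gad1 had its lowest level in stem cells and its highest with vitamin C in both replicates. Stem cells held 0.252 and 2.50 CPM, cells without vitamin C 0.465 and 8.97 CPM, and cells with vitamin C 2.20 and 13.3 CPM. In replicate 1 these levels rested on 2, 4 and 23 reads, so the first 2 groups could not be told apart there. Replicate 2 was the higher library in each group, and the groups overlapped because the replicates lay further apart than the groups. The group means were 1.37 ± 1.59, 4.72 ± 6.02 and 7.75 ± 7.85 CPM (SD, n = 2), so neighbouring groups did not differ beyond their spread.

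Slc32a1 followed the same order. No read was counted in stem cells of replicate 1, where it stood at 0 against 1.97 CPM in replicate 2, while cells without vitamin C held 1.05 and 4.73 CPM and those with it 1.72 and 7.54 CPM. In replicate 1 these levels rested on 0, 9 and 18 reads. The transporter was at its lowest in stem cells and at its highest with vitamin C in each replicate, with group means of 0.985 ± 1.39, 2.89 ± 2.60 and 4.63 ± 4.11 CPM (SD, n = 2). Gad2 did not share that order. It was measured at 0.504 and 1.45 CPM in stem cells, 1.40 and 1.72 CPM without vitamin C, and 0.670 and 3.46 CPM with it, so its highest library of replicate 1 was the one without vitamin C. In replicate 1 Gad2 rested on 4, 12 and 7 reads.

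Dlx1 and Dlx2, which lie next to each other on chromosome 3 with no other gene between them in the RefSeq annotation, went together across the libraries (Pearson r 0.947 over 6 libraries, as a description). Dlx1 had 0.757 and 3.15 CPM in stem cells, 2.44 and 6.88 CPM without vitamin C, and 8.23 and 4.31 CPM with it. Dlx2 stood at 0 and 1.31 CPM, 0.581 and 1.83 CPM, and 1.72 and 1.55 CPM. For both genes the cells given vitamin C were the highest group in replicate 1 and lay between the other groups in replicate 2. Theirs were also the only members whose level with vitamin C was higher in replicate 1 than in replicate 2.

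Sst was counted in replicate 2 alone. All 3 libraries of replicate 1 held 0 reads, while those of replicate 2 held 0.788 CPM in stem cells, 3.98 CPM without vitamin C and 6.60 CPM with it, from 12, 74 and 141 reads. At the depth of replicate 1, these counts of 0 allow a level of up to 0.378, 0.349 and 0.287 CPM (3 reads, counting error only). The 3 values of replicate 2 lay above these limits.

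**Figure D1:**
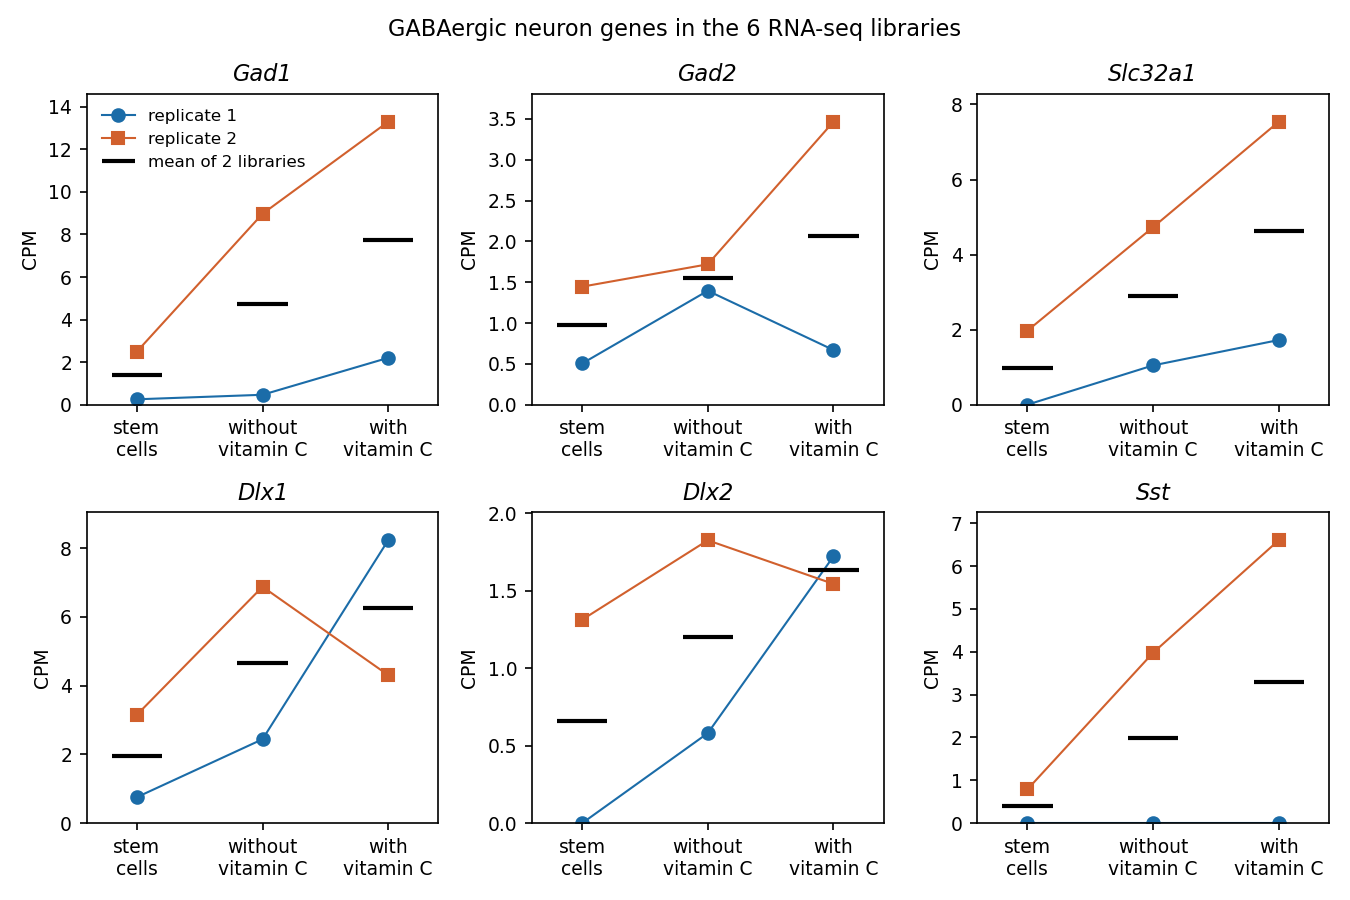
CPM (linear axis from 0) of the 6 measured GABAergic neuron genes in stem cells and in cells differentiated without and with vitamin C. Circles are replicate 1, squares replicate 2, lines join libraries of the same replicate number and black bars are means of 2 libraries; Gad1 reached 13.3 CPM in replicate 2 and 2.20 CPM in replicate 1, and Sst was at 0 throughout replicate 1.

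Summed over the 6 genes, expression was 1.51, 5.93 and 14.5 CPM in the 3 groups of replicate 1 and 11.2, 28.1 and 36.8 CPM in those of replicate 2. The order was the same in both replicates, but the stem cells of replicate 2 exceeded the cells of replicate 1 without vitamin C. In bulk RNA, fewer cells of a type and less RNA per cell cannot be told apart. The sum of 20 pan-neuronal genes was 837, 1388 and 1221 CPM in replicate 1 and 1283, 1197 and 1228 CPM in replicate 2. Set against that sum, Gad1 was at 0.0301%, 0.0335% and 0.180% in replicate 1 and at 0.195%, 0.749% and 1.08% in replicate 2. Its order across the groups was kept against this sum, but the first 2 values of replicate 1 rested on 2 and 4 reads. Slc32a1 likewise went from 0% through 0.0754% to 0.141%, and from 0.154% through 0.395% to 0.614%. The sum does not measure neuron content, as its genes went different ways. Map2 had 278 and 220 CPM in stem cells, 212 and 137 CPM without vitamin C and 206 and 121 CPM with it. Nsg2 had 42.6 and 195, 201 and 313, and 208 and 325 CPM. The order may thus differ against single genes of the set, which was not tested.

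Between differentiated cells with and without vitamin C, no member passed the test. Limma on log2(CPM + 0.5), with Benjamini-Hochberg adjustment, called 0% of 11823 genes; 62 had an unadjusted p under 0.05, edgeR called 0 and DESeq2 called 6 (32 with a replicate term), none of them a member. Gad1 was higher by 1.01 (SE 1.49), Slc32a1 by 0.57 (SE 1.20), Dlx1 by 0.48 (SE 0.82), Dlx2 by 0.43 (SE 0.90), Sst by 0.33 (SE 1.73) and Gad2 by 0.07 (SE 0.84), all with an adjusted p of 1.00. Each difference was smaller than its SE in this fit, which has no replicate term, so the SE includes the gap between replicates. It is not the SE of a paired comparison, although the replicate deviations of these 2 groups correlated at 0.914 across genes. How the differences stand against the spread within pairs is thus not shown by it. With a replicate term limma also called 0 genes, and the SEs of that fit are not given here. The smallest p that an exact permutation test of 2 libraries against 2 can give is 0.333, and such a test was not used.

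Within replicates, only Gad1 and Slc32a1 were higher with vitamin C in both. That is 2 of 6 members, where 30% of all genes tested were higher in both replicates and 26.4% lower in both, so the share of members is near the background. No member had groups that did not overlap, as 8.15% of all genes did on the higher side. For Gad1 the CPM ratio was 4.73 in replicate 1 (exact 95% interval 1.62 to 18.8, from 23 against 4 reads) and 1.48 in replicate 2 (1.22 to 1.81, from 284 against 167 reads). For Slc32a1 the ratios were 1.65 (0.702 to 4.16) and 1.59 (1.22 to 2.09). The intervals cover read counting in 1 library against 1 and not the spread between libraries.

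The Dlx genes and Gad2 went opposite ways in the replicates. The Dlx1 ratio was 3.37 (2.07 to 5.72) in replicate 1 and 0.626 (0.474 to 0.825) in replicate 2, so each interval left out 1 on a different side. Dlx2 had ratios of 2.96 (1.06 to 10.2) and 0.846 (0.508 to 1.41). Gad2 was lower in replicate 1, at 0.480 (0.160 to 1.32), and higher in replicate 2, at 2.02 (1.31 to 3.15). Sst could be compared in replicate 2 alone, at 1.66 (1.24 to 2.23). Whether the direction differs between replicates was not tested, as each replicate has 1 library per group.

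**Figure D2:**
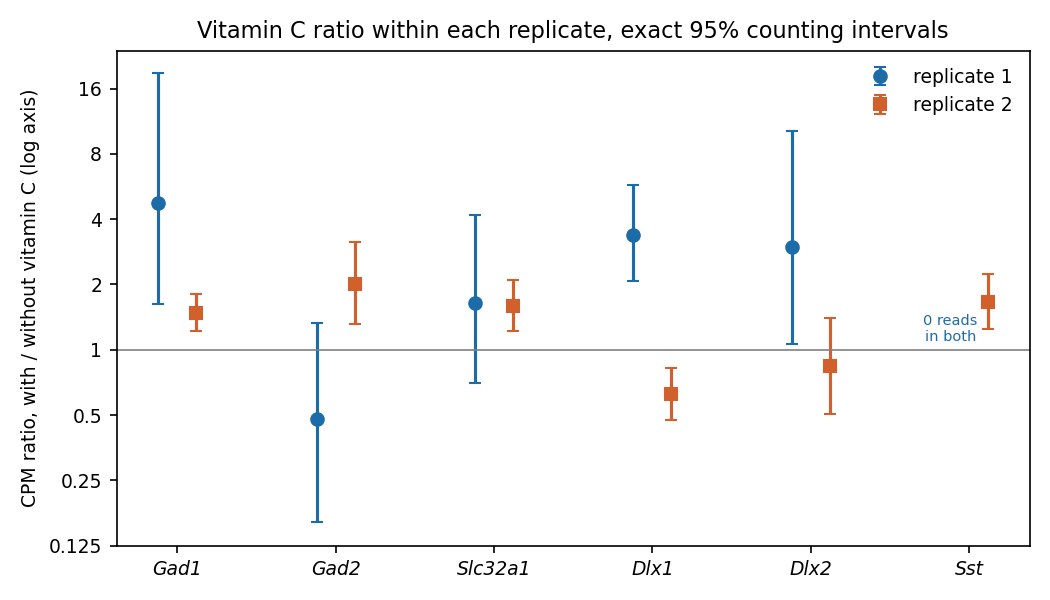
Ratio of CPM with to CPM without vitamin C (log axis) for each gene in replicate 1 (circles) and replicate 2 (squares), with exact 95% intervals for read counting in 1 library against 1. Gad1 and Slc32a1 lie above 1 in both replicates, while Dlx1 is at 3.37 in replicate 1 and 0.626 in replicate 2.

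Among markers of other cell types, most astrocyte genes were higher with vitamin C in both replicates. The summed level of 15 astrocyte markers was 3768 and 10162 CPM without vitamin C and 11002 and 17449 CPM with it, with 11 of 15 higher in both replicates, 0 lower in both and 0 at a count of 0. Limma called none of them, with or without a replicate term, and DESeq2 called 3 with a replicate term, Agt (adjusted p 2.17e-06), Aldh1l1 (0.0254) and Gfap (0.0478), and none without it. These 3 are named because of that call and were picked with their values known. The sum of 15 oligodendrocyte lineage genes was 13634 and 1236 CPM without vitamin C and 10154 and 997 CPM with it, with 6 higher and 8 lower in both. DESeq2 called 1 of these 15 with a replicate term and 0 without it, and limma called 0 with or without that term. The part of either marker set in the differences of the GABAergic genes was not tested.

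Against stem cells, the members were higher in differentiated cells, but none passed in limma here either. Without vitamin C, limma called 0% of genes (382 at an unadjusted p under 0.05; edgeR called 0, DESeq2 71, with no call among the 4 members to which it gave an adjusted p; Gad2 and Dlx2 had none). Slc32a1 was higher by 1.36 (SE 1.20), Dlx1 by 1.12 (SE 0.82), Gad1 by 1.01 (SE 1.49), Sst by 0.90 (SE 1.73), Dlx2 by 0.74 (SE 0.90) and Gad2 by 0.55 (SE 0.84). Sst stayed below 1 CPM in both stem cell libraries and reached the filter through differentiated libraries alone. That favoured a higher level there, so its difference is a description. All members but Sst, 5 of 6, were higher in both replicates, where 28.6% of all genes were higher in both and 29.5% lower. A rise was not particular to the members. Of 20 pan-neuronal genes 11 were higher and 3 lower in both, of 15 oligodendrocyte lineage genes 10 and 1, and of 15 astrocyte genes 7 and 3. No member had groups that did not overlap, as 13.8% of genes did on the higher side. The median over the 6 members was 0.95, against 0.01 over all genes tested. The table lists only genes that reach at least 0.967 CPM in some library, so these counts describe the 6 genes measured and not all 8 listed.

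With vitamin C the differences from stem cells were numerically larger in every member. Limma called 0% of genes (507 at an unadjusted p under 0.05; edgeR called 0, DESeq2 without a replicate term 137 and no member). Gad1 was higher by 2.02 (SE 1.49), Slc32a1 by 1.93 (SE 1.20), Dlx1 by 1.60 (SE 0.82), Sst by 1.23 (SE 1.73), Dlx2 by 1.16 (SE 0.90) and Gad2 by 0.62 (SE 0.84), each with an adjusted p of 1.00. DESeq2 with a replicate term called 772 of 11823 genes, with 1 member among them, Gad1 (2.77, adjusted p 0.0125). Stem cells share only the replicate number with the differentiated libraries, and limma and edgeR with that term called 0. Dlx1 and Dlx2 had groups that did not overlap, 2 of 6 members beside 14.2% of all genes. Again 5 of 6 members were higher in both replicates, beside 28.6% of genes higher and 29% lower, and the median was 1.41 against 0.01 over all genes. Of 20 pan-neuronal genes 9 were higher and 6 lower in both, of 15 oligodendrocyte lineage genes 9 and 2, and of 15 astrocyte genes 11 and 2. This comparison shares the stem cell libraries with the one before, so the counts are not independent of each other. The filter limit given there for Sst applies here too.

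Read ratios within each replicate set the differences from stem cells against counting error. Gad1 with vitamin C was 8.73-fold (2.16 to 76.4) in replicate 1, from 23 against 2 reads, and 5.33-fold (3.79 to 7.68) in replicate 2, from 284 against 38 reads. Slc32a1 in replicate 1 had 18 reads against 0, at least 4.55-fold higher when the stem cells are set to a floor of 3 reads per library, with an exact 95% lower limit of 3.34, and it was 3.82-fold (2.58 to 5.85) in replicate 2. Dlx1 was 10.9-fold (4.80 to 30.5) in replicate 1, while in replicate 2 its ratio of 1.37 had an interval from 0.953 to 1.98. Dlx2 had the same counts and limits as Slc32a1 in replicate 1, and a ratio of 1.18 (0.655 to 2.16) in replicate 2. Gad2 had a ratio of 1.33 (0.338 to 6.19) in replicate 1 and 2.40 (1.47 to 4.05) in replicate 2. Sst in replicate 2 was 8.37-fold (4.65 to 16.6), from 141 against 12 reads. The interval thus left out 1 in both replicates for Gad1 and Slc32a1, and in 1 replicate for Dlx1, Dlx2, Gad2 and Sst.

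Without vitamin C fewer ratios to stem cells left out 1. In replicate 1 Gad1 had a ratio of 1.84 (0.264 to 20.4) and Gad2 of 2.77 (0.838 to 11.8), so neither could be told from no difference, while Dlx1 was 3.23-fold (1.26 to 9.77). Slc32a1 there had 9 reads against 0, an exact lower limit of 1.82, and Dlx2 had 5 against 0, a lower limit of 0.845. In replicate 2 Gad1 was 3.59-fold (2.51 to 5.26), Slc32a1 2.40-fold (1.57 to 3.76), Dlx1 2.18-fold (1.55 to 3.11) and Sst 5.04-fold (2.72 to 10.2). Gad2 (1.19, interval 0.670 to 2.15) and Dlx2 (1.39, interval 0.778 to 2.55) had intervals that held 1 in that replicate.

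**Figure D3:**
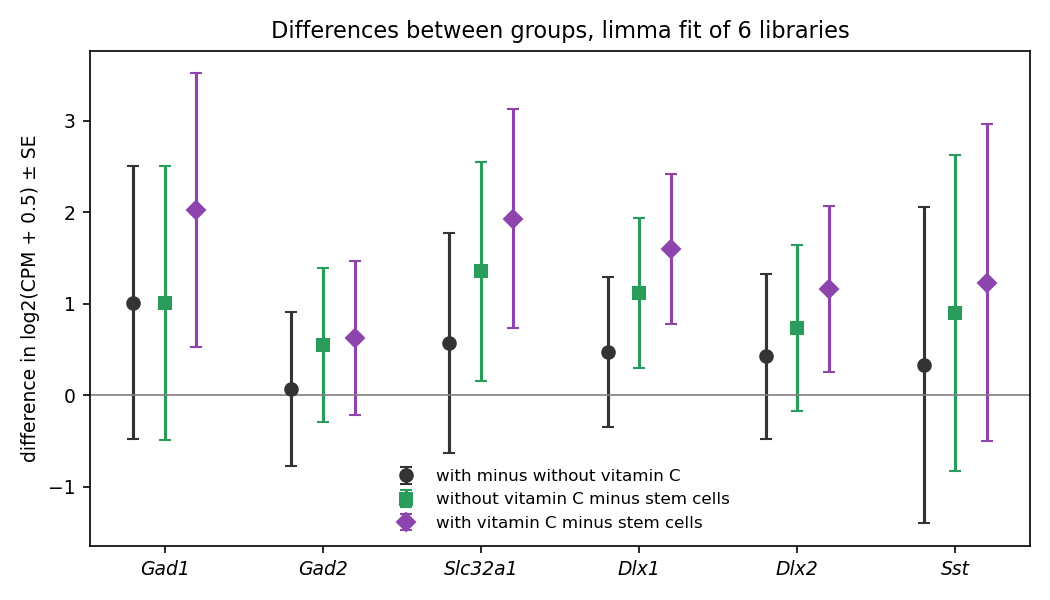
Differences between groups in log2(CPM + 0.5), with bars of 1 SE from the limma fit of 6 libraries, for the 3 comparisons (circles, squares and diamonds). All points lie above 0, from 0.07 for Gad2 with minus without vitamin C to 2.02 for Gad1 with vitamin C minus stem cells. No difference passed the test in this fit, which has no replicate term, so the SE includes the gap between replicates.

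Gad1, Gad2, Slc32a1 and Sst, 4 of 6 members, were higher in replicate 2 in all 3 groups, as were 32.5% of all genes tested. Sst had 0 reads throughout replicate 1. In a limma fit with group and replicate, run after the data were seen, Slc32a1 was higher in replicate 2 by 1.97 (SE 0.30, adjusted p 0.0144, 3 of 3 groups), while Dlx1 (0.67, SE 0.55, adjusted p 0.395) did not pass. These 2 genes alone among the members reached the filter of 1 CPM in 2 libraries within replicate 1. The other 4 entered the fit through replicate 2, which favoured a higher level there, so their differences are a description: 2.79 (SE 0.56) for Sst, 2.55 (SE 0.37) for Gad1, 0.98 (SE 0.41) for Gad2 and 0.95 (SE 0.48) for Dlx2. The fit called 17.4% of all genes higher and 7.7% lower in replicate 2, and 1168 of the 11823 genes tested did not reach the filter within replicate 1.

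The summed levels of other cell type markers also differed between the replicates, given here as a description. Microglia and macrophage markers summed to 6.32 to 7.57 CPM in the libraries of replicate 1 and 412 to 1004 CPM in those of replicate 2, with 4 to 9 of the 16 at 0 in each library of replicate 1. Of these 16, 15 did not reach the filter within replicate 1 and were tested through replicate 2. Fibroblast, pericyte and meninges markers summed to 361 to 394 CPM and 4211 to 10705 CPM (4 of 14 tested did not reach the filter within replicate 1). Markers of cranial mesenchyme and bone, tissues in which Dlx genes are also used, summed to 13.2 to 32.2 CPM and 103 to 149 CPM (7 of 10). Oligodendrocyte genes, of which 15 of 15 reached the filter within replicate 1, summed to 2345 to 13634 CPM there and to 846 to 1236 CPM in replicate 2. Their part in the replicate gap of Gad1, Gad2, Slc32a1 and Sst was not tested, and neither was that of the D4 and D5 labels.

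Other GABAergic lineage factors did not follow the members. Of 34 listed, 26 were in the table and 22 were tested, and none passed in limma in any comparison. Between differentiated cells, 1 was higher and 9 were lower with vitamin C in both replicates, with a median of -0.09 against 0.02 over all genes. Nr2f1, an orphan nuclear receptor of interneuron progenitors, was at 98.1 and 44.0, 130 and 47.5, and 157 and 45.8 CPM, and Zeb2, a factor in interneuron migration, at 58.8 and 51.2, 105 and 48.5, and 151 and 51.4 CPM. Both were highest with vitamin C in replicate 1 and varied little between groups in replicate 2. Against stem cells, 6 factors were higher and 6 lower in both replicates without vitamin C, and 6 higher and 8 lower with it.

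Peptides and calcium-binding markers of inhibitory neuron subtypes were few. Of 24 listed, 16 were in the table and 11 were tested. Given vitamin C, 2 were higher and 3 lower than without it in both replicates (median 0.01). Against stem cells 4 were higher and 4 lower without it (median -0.20), and 3 higher and 5 lower with it (median -0.19). Reln, a secreted matrix protein of some interneurons, had 10.3 and 23.8 CPM in stem cells, 15.2 and 36.9 CPM without vitamin C and 50.9 and 45.2 CPM with it, so both libraries with vitamin C lay above all others. Penk, the enkephalin precursor, was at 5.30 and 86.1, 3.02 and 55.1, and 0.957 and 42.7 CPM, the reverse order in both replicates. Htr3a, a serotonin-gated channel of one interneuron class, was at 9.21 and 120 CPM in stem cells, 10.9 and 13.6 CPM without vitamin C, and 4.88 and 2.53 CPM with it, a difference from stem cells that DESeq2 called with vitamin C (adjusted p 0.0315). None of the 3 passed in limma.

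Genes for GABA uptake and breakdown held members both lower and higher than in stem cells. Slc6a11, which encodes the mainly astrocytic GABA transporter GAT-3 and was chosen after its values were seen, had 374 and 512 CPM in stem cells, 166 and 48.5 CPM without vitamin C, and 144 and 65.2 CPM with it. Every differentiated library lay below either stem cell library, with differences of -2.28 (SE 0.70) without and -2.17 (SE 0.70) with vitamin C (limma adjusted p 1.00 for each). Maob, a monoamine oxidase that takes part in an alternative route to GABA from putrescine, was also chosen after its values were seen. It had 2.40 and 5.26 CPM in stem cells, 16.4 and 45.1 CPM without vitamin C and 33.7 and 66.8 CPM with it. DESeq2 called Maob against stem cells both without (adjusted p 0.0387) and with vitamin C (0.00137), whereas limma did not (1.00 and 0.974).

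All 17 listed uptake and metabolism genes were tested. Slc1a3, the glial glutamate transporter GLAST, had 606 and 852 CPM in stem cells, 421 and 441 CPM without vitamin C and 545 and 476 CPM with it. Glul, glutamine synthetase, was at 429 and 546, 305 and 488, and 215 and 405 CPM. Against stem cells 5 genes were higher and 9 lower in both replicates without vitamin C, and 4 higher and 8 lower with it (medians -0.09 and -0.31). Of the same genes, 6 were higher with than without vitamin C and 3 lower (median 0.16).

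GABA receptor subunits also had different orders of groups in the 2 replicates. Of 20 listed, 17 were in the table and 14 were tested, and 0 passed in limma. Gabbr1, a subunit of the metabotropic GABA-B receptor, was measured at 328 and 343 CPM in stem cells, 681 and 347 CPM without vitamin C and 1171 and 324 CPM with it. Its partner Gabbr2 was at 47.8 and 15.0, 83.1 and 14.3, and 154 and 8.57 CPM. In replicate 1 both had the order stem cells, without, with vitamin C, and in replicate 2 neither did. Gabrg1, a subunit of the ionotropic GABA-A receptor, was at 46.2 and 27.6, 37.1 and 13.9, and 68.1 and 23.1 CPM. Compared with cells lacking vitamin C, 5 subunits were higher and 3 lower in both replicates, with medians of 0.50 in replicate 1 and -0.10 in replicate 2. Against stem cells 4 were higher and 4 lower without it, and 4 higher and 0 lower with it.

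Of 15 listed genes of the inhibitory synapse, 13 were tested and 0 passed in limma. Gabarap, which binds GABA-A receptors and autophagosomes, had 82.2 and 81.9 CPM in stem cells, 128 and 117 CPM without vitamin C and 108 and 119 CPM with it, so its differentiated libraries all lay above the stem cell libraries. Nlgn2, the adhesion protein of inhibitory synapses, was at 98.7 and 233, 265 and 196, and 281 and 147 CPM, and Clptm1, which retains GABA-A receptors in the endoplasmic reticulum, at 161 and 293, 215 and 197, and 235 and 173 CPM. The presence of vitamin C went with 2 higher and 1 lower in both replicates (median 0.05). Against stem cells 4 were higher and 2 lower without vitamin C and 4 higher and 1 lower with it.

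**Figure D4:**
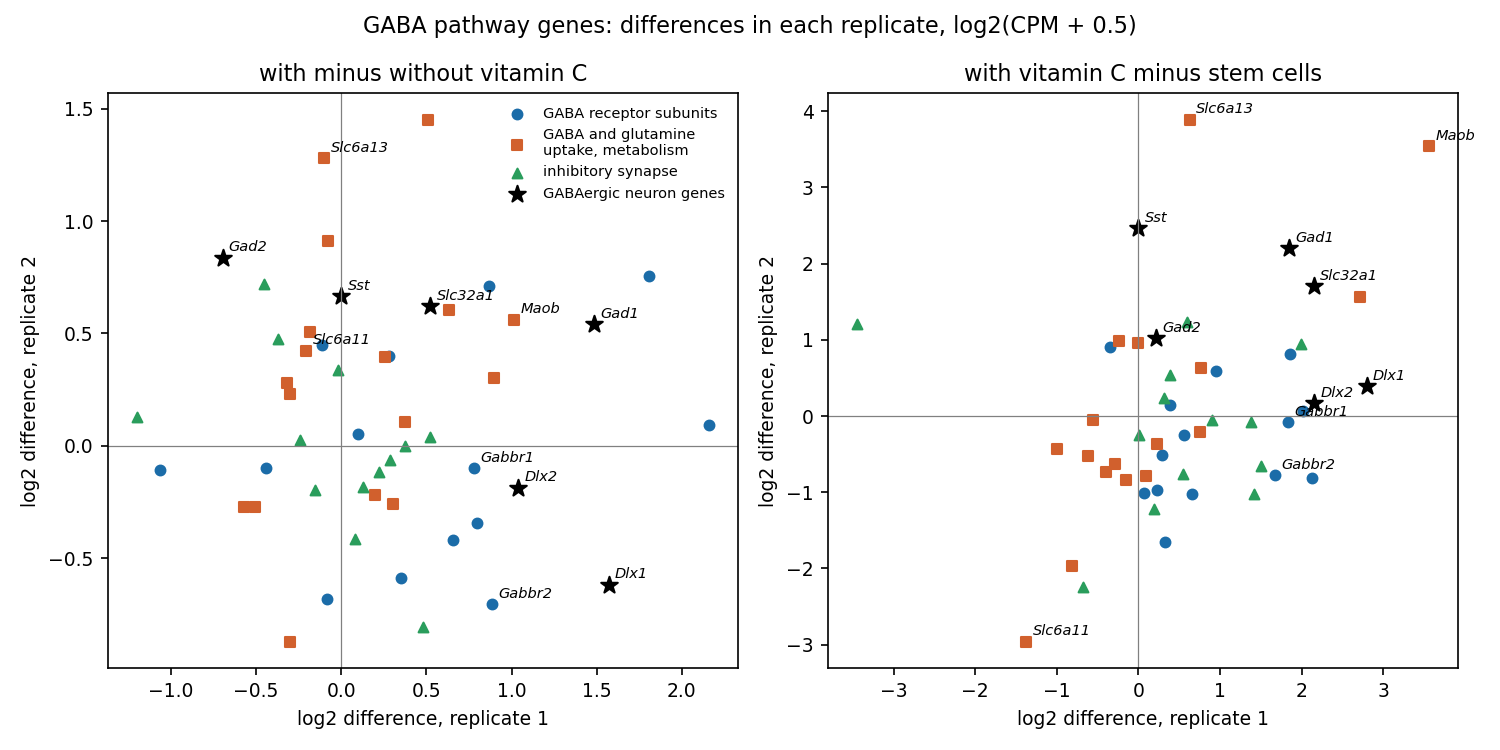
Difference in log2(CPM + 0.5) in replicate 1 (horizontal axis) against replicate 2 (vertical axis), with minus without vitamin C (left) and with vitamin C minus stem cells (right), 1 point per gene, stars for the 6 GABAergic neuron genes. On the left Gad1 and Slc32a1 are in the upper right and Dlx1, Dlx2, Gabbr1 and Gabbr2 in the lower right quadrant; on the right Slc6a11 is at the lower left and Maob at the upper right.

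The labelled cell types were checked against their markers. Of 10 stem and progenitor markers, a list added after the data were seen, 9 were in the table. Vim, an intermediate filament of progenitors and glia, had 1304 and 3370 CPM in stem cells, 1112 and 3482 CPM without vitamin C and 560 and 3930 CPM with it. Fabp7, a fatty acid binding protein of radial glia, had 1961 and 768, 2152 and 468, and 2016 and 536 CPM. Sox2, a stem cell transcription factor, was at 332 to 455 CPM in all 6 libraries. Nes, which was chosen after its values were seen, was lower in differentiated cells, at 159 and 116 CPM in stem cells, 81.6 and 53.5 CPM without vitamin C and 35.3 and 32.5 CPM with it. All 20 pan-neuronal genes were detected in each library, among them Rbfox3, a marker of mature neurons, at 3.15 to 10.6 CPM (chosen after its values were seen). The highest of them were Rtn1 at 191 to 430 CPM, Nsg2 at 42.6 to 325 CPM and Map2 at 121 to 278 CPM. In the vitamin C comparison 4 of 20 pan-neuronal genes were higher and 12 lower in both replicates (median -0.29), beside 30% and 26.4% of all genes. Of the 6 members, 2 were higher in both, Gad1 and Slc32a1, and 0 lower in both.

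The genes whose pattern over the 6 libraries was most like that of a member were taken from 9817 others with a mean of at least 5 CPM, by Pearson r of log2(CPM + 0.5). For Gad1 they were Fmnl1 (0.997), Drc1 (0.996) and Psme2 (0.996), for Slc32a1 Syt5 (0.998), Cd9 (0.996) and Camkk1 (0.996), and for Sst Ifit3 (1.00), Dnaaf3 (1.00) and Tnni3 (0.996). For Gad2 they were Nr4a2 (0.991), Stat3 (0.990) and Gas2l1 (0.980). For Dlx1 they were Col11a2 (0.989), Sprtn (0.981) and Rps6ka4 (0.975), and for Dlx2 Bex1 (0.994), B4galt4 (0.994) and Tmem35 (0.993). The points share 6 libraries and the replicate gap, and a likeness at or above 0.95 was reached by 378 genes for Sst, 170 for Gad1, 123 for Slc32a1, 34 for Dlx2, 17 for Gad2 and 13 for Dlx1. Among the members themselves, Gad1 and Slc32a1 had an r of 0.951 and Gad1 and Sst of 0.931, while Dlx1 and Sst had 0.411 and Dlx1 and Gad2 0.343.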

How the data were processed

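The 6 RNA-seq samples of 24 were used; 18 samples of MBD-seq, hMeDIP-seq or NFI ChIP-seq, with their inputs, were not analysed here. Gene expression was deposited as CPM per gene, scaled by the authors to a library total of which the listed genes take 60.2% to 67.7%. Per the submitters' processing notes, STAR 2.5.1, edgeR 3.12.1 and the rn5 build were among the tools and builds used, without their role; the read counter, annotation, strand setting and gene filter are not given in the sources used here. Libraries were made with a TruSeq RNA kit, per the labels' protocols. Dividing each library by its smallest value above 0 gave whole reads for 100% of values (relative tolerance 1e-06).

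The 11823 genes at 1 CPM or more in 2 or more libraries entered a two-sided limma 3.58.1 fit with trend (R 4.3.3) of log2(CPM + 0.5) on the 3 groups, which leaves 3 residual degrees of freedom, at a Benjamini-Hochberg adjusted p under 0.05. Fold changes on this scale understate the change of low genes. Alternatives were edgeR 4.0.16 and DESeq2 1.42.0 fits of the recovered reads, with and without a replicate term, a pseudocount of 0.1 or of 2, dropping the filter or raising it to 5 CPM, median-of-ratios rescaling, no trend and leaving out each library. A common replicate number and day label pairs differentiated libraries, whose replicate deviations correlated across genes at 0.914; stem cells share only the number. Read ratios have exact 95% intervals. Lists are described by counts and medians, without a test, and "higher in both replicates" means that both within-replicate differences were above 0. Named genes were the members, up to 3 genes of highest mean CPM of each list, and the 3 most alike genes of each member; any other is marked as picked with its values known. A few genes that qualify are not reported here. The members and lists were chosen with earlier results of these data known. The replicate-term test, the counts over both replicates, the stem marker list, the count of genes reaching the filter within a replicate and the motifs were added after the data were seen.

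On simulated data keeping the replicate gap, with 11904 genes and known changes in the vitamin C group, limma recovered 0 of 66 genes at 8-fold, 0 of 67 at 4-fold and 0 of 67 at 2-fold. With a replicate term it recovered 64, 58 and 14. The simulated replicate gap was the same in all 3 groups, which favours the fit with that term. In the data the replicate deviations of the groups correlated at 0.914, 0.730 and 0.688, so recovery there may be lower. The count of 0 calls in limma therefore does not bound how many genes differ.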

Additional observations from a re-analysis of the deposited data

How the results depend on the processing

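Calls: with and without vitamin C, limma, edgeR and the rescaled, filtered and leave-one-library-out fits called 0 genes, DESeq2 called 6 and DESeq2 with the replicate block 32. Against stem cells DESeq2 called 71 genes without and 137 with vitamin C, and 457 and 772 with the replicate block. In these fits 1 member was called: Gad1 with vitamin C against stem cells by DESeq2 with the replicate block (2.77, adjusted p 0.0125; over all alternatives 0.0125 to 1.00). The replicate block called 0 genes in limma and edgeR and changed no other call of a member. For stem cells only the replicate number is shared (correlations of replicate deviations 0.730 without and 0.688 with vitamin C). Of 294 member values under alternatives, 275 kept direction and side of the threshold, 3 kept direction without an adjusted p (DESeq2 without vitamin C against stem cells, for Gad2 and, with and without the replicate block, Dlx2), and 15 reversed. All 15 came from leaving out 1 library, where the replicate gap enters the difference and the lone library is assumed to vary like the other groups.

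With vitamin C against without, the values over leave-one-out fits ran for Gad1 from -0.63 to 2.66, Gad2 from -0.81 to 0.95, Slc32a1 from -0.36 to 1.50, Dlx1 from -0.19 to 1.14, Dlx2 from -0.13 to 0.98 and Sst from -1.58 to 2.25. All 6 were below 0 when replicate 1 lacking vitamin C was left out, and Gad1, Gad2, Slc32a1 and Sst also when replicate 2 given it was left out. Without vitamin C against stem cells, Gad1 ran from -0.64 to 2.66 and Sst from -0.68 to 2.48, both lowest on leaving out replicate 2 lacking vitamin C, and Dlx2 from -0.19 to 1.67, lowest without replicate 1 of the stem cells. With vitamin C against stem cells, Gad2 ran from -0.26 to 1.50 and Sst from -0.68 to 3.15, both lowest on leaving out replicate 2 given vitamin C. With at least 5 CPM in 2 libraries, Gad2, Slc32a1, Dlx2 and Sst had no value. Depth limits what replicate 1 can show: it held 0 reads of Sst, 0 to 18 of Slc32a1 and of Dlx2, 4 to 12 of Gad2 and 2 to 23 of Gad1.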

Other observations

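Genes of other transmitter types were measured in the same libraries. Of 12 glutamatergic neuron genes 5 were in the table. Slc17a6, the vesicular glutamate transporter VGLUT2, had 0.378 and 2.10 CPM in stem cells, 1.40 and 5.10 CPM without vitamin C and 3.44 and 9.51 CPM with it, the same order of groups as Slc32a1 in both replicates. Slc17a8, VGLUT3, had 4.54 and 8.41, 4.19 and 2.96, and 3.35 and 3.42 CPM in the same groups. In the vitamin C comparison 2 of 4 glutamatergic genes tested were higher and 1 lower in both replicates. Of 10 midbrain dopamine genes 4 were higher and 4 lower, of 6 peripheral adrenergic and neuroendocrine genes 2 higher and 3 lower, and of 8 olfactory ensheathing and Schwann cell genes 1 higher and 3 lower. None passed in limma.

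Slc6a13, the GABA transporter GAT-2 known from meninges, was picked with its values known. Its levels were 0.504, 1.16 and 1.05 CPM in the 3 groups of replicate 1, against 2.69, 19.0 and 46.9 CPM in replicate 2. Microglia genes with vitamin C against without were higher in both replicates for 1 of 16 and lower for 7, fibroblast and meninges genes for 1 and 9 of 14, cranial mesenchyme genes for 1 and 3 of 10, and stem cell markers for 0 and 4 of 9.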
